A study of Mus musculus with 7 samples.

Results

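Chromatin of purified cerebellar granule neuron progenitors (GNPs) was examined at 10 genes that mark other cells of the cerebellum. Pcp2 and Calb1 mark Purkinje cells, Ptf1a and Pax2 the inhibitory interneuron lineage, Olig2 and Sox10 the oligodendrocyte lineage, Gfap and Aqp4 astrocytes, Csf1r microglia and Cldn5 the endothelium. The genes were taken by name from the 21911 protein-coding genes of GENCODE M21, and a peak was assigned to a gene when its centre lay between the gene's ends or no more than 50 kb beyond either (the gene's window, mm10). The question was how far the chromatin of these GNPs carries marks of other lineages. By this rule the 10 windows held 18 of the 31400 H3K27ac peaks of WT GNPs, 2 of the 1946 Chd7 peaks of WT GNPs and 0 of the 96 Chd7 peaks of Chd7-deficient GNPs.

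GNPs were freshly isolated from C57BL/6 mouse pups (C57BL/6N in the study's methods) at postnatal day 7 (P7) by percoll gradient, a density step that enriches the small granule cells but does not sort them by a marker. ChIP-seq was done for acetylated lysine 27 of histone H3 (H3K27ac) in WT GNPs and for Chd7, an ATP-dependent nucleosome remodeller, in WT and Chd7-deficient GNPs. Top2b, the type II topoisomerase of postmitotic neurons, was mapped in WT and Chd7-deficient cerebellar granule neurons (CGNs), which were GNPs kept in culture for 48 h without Sonic hedgehog. WT mice were Chd7 f/f and the deficient animals Atoh1-Cre::Chd7 f/f, so the deletion was driven in the Atoh1 lineage and would spare cells of other lineages left in a preparation. Chd7 protein was still seen in the posterior lobe of the deficient animals, which the study put down to probable incomplete recombination. There was 1 library per condition, hence no error between animals and no test. Counts of genes are set beside the share of all 21911 genes that met the same rule.

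The cerebellum has a pair of germinal zones. Granule cells descend from Atoh1-expressing progenitors of the rhombic lip. Purkinje cells and inhibitory interneurons are GABAergic, and their progenitors line the fourth ventricle and depend on Ptf1a. Glia arise from further progenitors, and microglia and endothelial cells come from outside the neural tube. H3K27ac lies on active promoters and enhancers, so a gene that is silent in a cell is usually free of it. Promoters rich in CG dinucleotides are, in addition, often held by Polycomb or kept nucleosome-depleted in cells that do not use the gene, whereas promoters poor in CG tend to be marked in the expressing cells alone.

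Granule genes were marked in these libraries. All 12 genes of a granule lineage list (Atoh1, Pax6, Zic1, Zic2, Neurod1, Barhl1, Nhlh1, Meis1, Gli1, Gli2, Mycn and Ccnd2) had an H3K27ac peak within 1 kb of an annotated start, as had 46.5% of all genes. Their strongest start peaks ran from a fold enrichment over local background of 3.55 at Atoh1 to 33.8 at Meis1, with a median of 19.7. In a tissue ChIP, a weak peak from a few strongly marked cells and one from many weakly marked cells cannot be told apart.

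The marker promoters themselves were of different kinds. Those of Pcp2, Calb1, Csf1r and Aqp4 are not shown, so the range of base composition is not fully covered. The other 6 are printed. Each is the 150 bases before the coding start, read 5′ to 3′ on the strand of the gene from the GRCm38 genome (mm10), with every CG in capitals. The coding start is the most upstream start of a protein-coding transcript in the GENCODE basic set, or the gene's 5′ end where there is none. Over all genes the median was 6 CG in these 150 bases, and 87.8% of genes had at least 1.
Olig2, chr16:91225307-91225456, plus strand: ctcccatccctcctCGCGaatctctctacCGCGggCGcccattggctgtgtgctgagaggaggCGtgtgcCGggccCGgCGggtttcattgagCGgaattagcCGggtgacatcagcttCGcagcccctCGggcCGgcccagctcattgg
Ptf1a, chr2:19445513-19445662, plus strand: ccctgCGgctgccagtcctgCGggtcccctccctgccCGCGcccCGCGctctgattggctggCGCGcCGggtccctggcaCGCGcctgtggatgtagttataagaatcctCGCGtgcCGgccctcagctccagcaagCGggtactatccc
Pax2, chr19:44755895-44756044, plus strand: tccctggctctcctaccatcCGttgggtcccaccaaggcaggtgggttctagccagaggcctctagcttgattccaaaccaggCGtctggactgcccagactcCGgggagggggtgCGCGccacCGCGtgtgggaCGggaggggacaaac
Cldn5, chr16:18776697-18776846, plus strand: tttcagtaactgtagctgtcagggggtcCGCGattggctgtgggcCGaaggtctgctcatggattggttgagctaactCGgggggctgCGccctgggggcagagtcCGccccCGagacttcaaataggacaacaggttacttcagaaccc
Sox10, chr15:79165241-79165390, minus strand: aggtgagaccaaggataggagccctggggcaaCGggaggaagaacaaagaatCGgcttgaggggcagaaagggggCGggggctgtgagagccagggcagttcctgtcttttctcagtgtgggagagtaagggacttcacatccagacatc
Gfap, chr11:102897201-102897350, minus strand: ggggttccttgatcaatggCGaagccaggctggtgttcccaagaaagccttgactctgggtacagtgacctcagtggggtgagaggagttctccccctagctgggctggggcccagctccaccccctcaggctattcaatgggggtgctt

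Ptf1a had 15 CG, Olig2 14, Pax2 8, Cldn5 7, Sox10 3 and Gfap 1. Of these 6 genes, Pax2 and Gfap had an H3K27ac peak within 1 kb of a start, with 8 and 1 CG.

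Over the 10 markers, H3K27ac was found at the start of 3 genes, Pax2, Csf1r and Gfap, against 46.5% of all genes. The other 7, Pcp2, Calb1, Ptf1a, Olig2, Sox10, Aqp4 and Cldn5, had no peak within 1 kb of any start. The fold enrichment was 4.25 at Pax2, 3.60 at Csf1r and 3.53 at Gfap, whereas the median over all genes with a start peak was 8.48. These values lay at percentiles 13.4, 7.14 and 6.54 of such genes, and all 3 were below the granule median. Counted from the annotated 5′ end alone, 1 marker (Pax2) had a peak, against 42.9% of all genes, and from the coding start alone 3 had, against 43.6%. With peaks of a −log10 q of at least 10 alone, 0 of the 10 markers and 11 of the 12 granule genes had a start peak, against 40.7% of all genes.

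At Pcp2 and Calb1, the Purkinje cell markers, acetylation belonged to the neighbours or was missing, unlike at 4 other genes of the wider Purkinje list given further on. Pcp2 encodes a modulator of G protein signalling (chr8:3623371-3625545, minus strand), and it lies in a gene-dense stretch with 8 other protein-coding genes within 50 kb. Its window held 3 H3K27ac peaks. They sat at the starts of Camsap3 (fold 5.13), Xab2 (fold 7.92) and Pet100 (fold 3.86), each within 1 kb, and the closest ended 3.56 kb from the Pcp2 start. Calb1 encodes the calcium buffer calbindin (chr4:15881264-15908064, plus strand) and had no H3K27ac peak in its window. A peak with a fold of 4.52 lay just outside, its centre 50.1 kb past the gene, which is the closest any excluded H3K27ac peak came to a window. The peak just inside the limit was at Sox10, 45.8 kb from the gene.

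The interneuron genes differed from each other. Ptf1a, the transcription factor that specifies GABAergic fate in the ventricular zone (chr2:19445663-19447501, plus strand), had no peak, and the nearest H3K27ac was 73.6 kb from its start. Pax2, expressed by the precursors of inhibitory interneurons as they leave the cell cycle (chr19:44756045-44837871, plus strand), had 3 peaks. No other protein-coding gene lay within 50 kb of Pax2, and the Pax2 start was the nearest for each of them. The peak on the start (chr19:44755847-44756760) had a pileup of 25.4 at its summit and a fold of 4.25. A weaker one lay 4.02 kb upstream (fold 3.37). The strongest, centred 5.47 kb upstream (chr19:44750012-44751140), had a pileup of 47.1, a fold of 7.36 and a −log10 q of 25.1, and its fold was higher than that of 75.4% of all H3K27ac peaks. It was also the strongest of all peaks whose nearest start belonged to a marker, and the 201 bases around its summit are therefore shown, on the plus strand with CG in capitals.
Pax2 upstream peak, chr19:44750776-44750976: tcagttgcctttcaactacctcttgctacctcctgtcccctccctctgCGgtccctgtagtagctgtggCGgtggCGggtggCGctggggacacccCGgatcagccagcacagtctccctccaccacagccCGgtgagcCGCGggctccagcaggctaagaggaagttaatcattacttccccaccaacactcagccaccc

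This stretch held 8 CG, beside a median of 4 in the 201 bases around the summits of the 31395 H3K27ac peaks on assembled chromosomes. The E-box hexamers CAGCTG and CAGATG, the first of which is palindromic, were searched on both strands and were absent, whereas 25.5% of these summits had at least 1 of them.

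At the oligodendrocyte genes no peak was nearest to the marker. Olig2, a bHLH factor of motor neuron and oligodendrocyte progenitors (chr16:91225457-91228677, plus strand), had an empty window, with the nearest H3K27ac 147 kb and the nearest WT Chd7 peak 126 kb away. Sox10, which drives myelin genes (chr15:79154908-79165240, minus strand), had 2 H3K27ac peaks in its window. They lay at the starts of Micall1 (fold 6.64) and Polr2f (fold 4.40), and the nearest base of either was 23.3 kb from the Sox10 start.

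Of the astrocyte genes, Gfap, an intermediate filament (chr11:102887336-102900912, minus strand), had 4 H3K27ac peaks, and Aqp4, the water channel of astrocyte endfeet (chr18:15389496-15410982, minus strand), had none, its nearest peak being 259 kb away. The strongest in the Gfap window was the Eftud2 promoter peak (fold 16.2, pileup 145), and Kif18b had a promoter peak (fold 7.78) and an intronic one (fold 2.96). The peak nearest to Gfap itself (chr11:102897799-102899424) was broad and shallow. It was 1626 bp wide, wider than 86.5% of all H3K27ac peaks, and its fold of 3.53 was higher than that of 29.4% of them. The annotated 5′ end of Gfap, 3.71 kb upstream of the coding start, is not that of a basic protein-coding transcript. The peak lay between both positions, 0.599 kb upstream of the coding start.

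Csf1r, the receptor that microglia need to survive (chr18:61100598-61132149, plus strand), had 4 peaks. The one at the start (chr18:61106014-61106320, fold 3.60, pileup 20.7) lay in an intron, 0.442 kb after the coding start, and was 307 bp wide, the smallest width in the H3K27ac table. A second intronic peak, centred 3.27 kb after the coding start, had a fold of 2.92. The other two were nearest to Hmgxb3, with folds of 2.94 and 6.22. As at Gfap, the annotated 5′ end of Csf1r is not that of a basic protein-coding transcript, and it lies 4.97 kb upstream of the coding start.

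Cldn5, the tight junction claudin of brain endothelium (chr16:18776847-18778262, plus strand), had 2 H3K27ac peaks. One, with a fold of 4.50, lay 9.39 kb from the Cldn5 start inside an intron of Cdc45, and Cldn5 was the nearest start. The other, at the divergent promoter of Cdc45 and Ufd1 (chr16:18811026-18812918), had a fold of 17.98, the highest in the 10 windows. Cdc45 is a subunit of the replicative helicase.

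**Figure D1:**
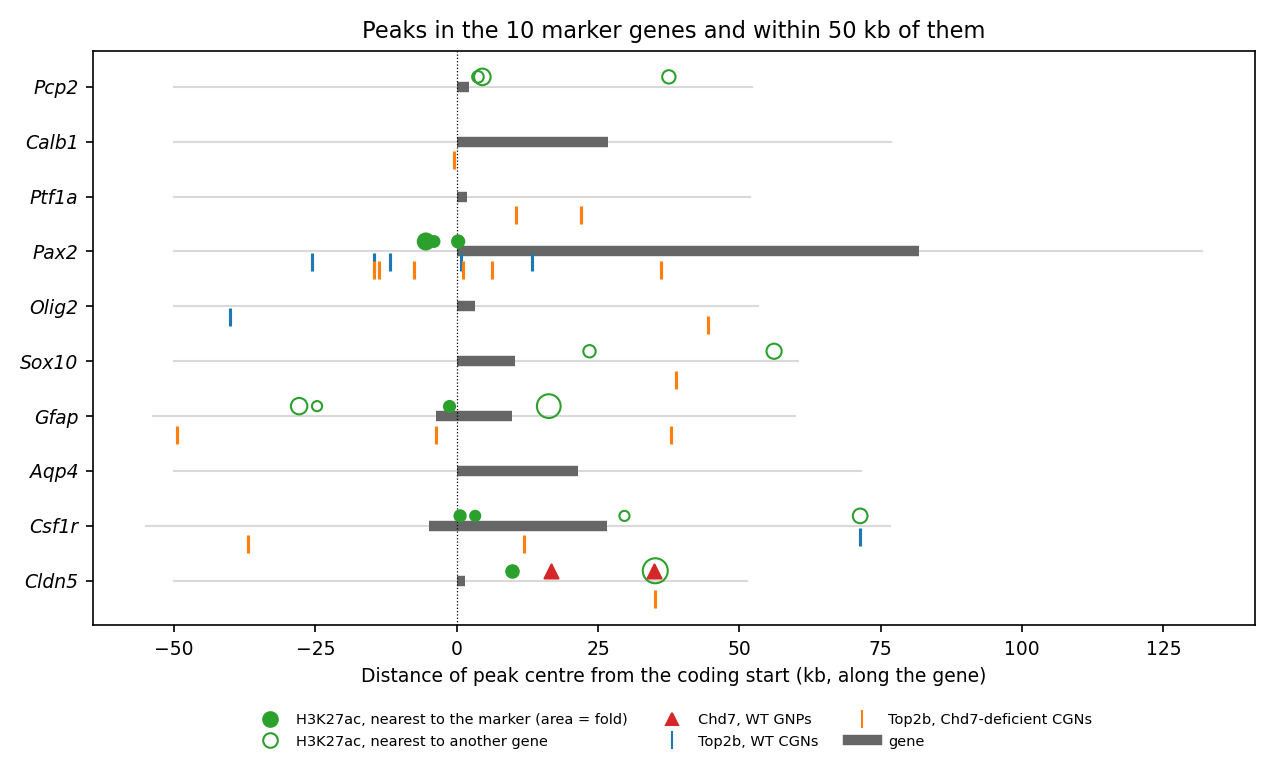
Peaks in the 10 marker genes and the 50 kb on either side, by distance of the peak centre from the coding start in kb along the gene. Grey bars are genes and grey lines their windows, green circles are H3K27ac peaks with an area set by fold (filled where the marker has the nearest start), red triangles are Chd7 peaks of WT GNPs, and ticks are Top2b peaks of WT (blue) and Chd7-deficient (orange) CGNs. The filled circles number 7 and lie at Pax2, Gfap, Csf1r and Cldn5, and both red triangles are in the Cldn5 window.

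Counted together, 6 of the 10 windows held an H3K27ac peak, as did 73.5% of all genes. Of the 18 peaks, 11 were nearest to a neighbouring gene, and 9 of these lay within 1 kb of that neighbour's start. How often this holds for the windows of all genes was not counted, so it is not read as a trait of the markers. Over all 31400 H3K27ac peaks, near genes or not, 35.5% were centred within 1 kb of a protein-coding start. That is an unlike measure, since the 11 were peaks already chosen by window and nearest start. The neighbours' peaks had folds from 2.94 to 17.98 with a median of 6.22. The 7 peaks nearest to a marker had folds from 2.92 to 7.36 with a median of 3.60, and the median of all H3K27ac peaks was 4.35. The pileups of these 7 ranged from 20.7 to 47.1, above the lowest in the table of 12.2, and 5626 of the 31400 peaks were at or below the weakest of them.

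Chd7 was found in the window of Cldn5 only, that is 1 of 10 markers against 14.3% of all genes. The distance from the coding start to the nearest WT Chd7 peak was 16.6 kb at Cldn5, 126 kb at Olig2, and between 522 and 3467 kb at the other 8. The median was 1225 kb over the 10 and 435 kb over all genes. Over the 52 genes of the wider lists given further on it was 386 kb, so a long distance was not general to off-lineage genes. Of the 2 peaks at Cldn5, the farther one (chr16:18811642-18811976) sat on the Cdc45 and Ufd1 promoter, inside the H3K27ac peak described there. Its summit pileup was 16 fragments (95% Poisson interval 9.15 to 26.0, for counting error only) with a fold of 3.90. The nearer peak (chr16:18793415-18793718), in an intron of Cdc45, had a pileup of 15 (8.40 to 24.7) and a fold of 4.06, and overlapped no H3K27ac peak, whereas 77.9% of WT Chd7 peaks overlapped one. Both pileups were below the median WT Chd7 peak, at 21 fragments, and close to the lowest in that table, at 12. The bases around the summit of the intronic peak are given because no acetylation accompanied it, on the plus strand with CG in capitals.
Cldn5 window Chd7 peak, chr16:18793344-18793544: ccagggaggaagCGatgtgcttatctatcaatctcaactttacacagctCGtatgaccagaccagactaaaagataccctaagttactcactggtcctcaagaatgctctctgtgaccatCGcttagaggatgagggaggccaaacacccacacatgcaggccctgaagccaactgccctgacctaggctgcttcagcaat

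It held 3 CG, beside a median of 6 around the 1902 WT Chd7 summits on assembled chromosomes, and neither E-box hexamer, of which at least 1 was present at 39% of these summits. In Chd7-deficient GNPs no Chd7 peak lay in any of the 10 windows, against 0.205% of all genes with one. The deficient library had only 96 peaks in all, so an empty window there was the usual state of a gene.

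Joining close H3K27ac peaks into domains, at the spacing usual for super-enhancers, and ranking the domains by width times pileup gave no super-enhancer-like domain over any marker window, against 8.29% of all genes. The highest-ranked domains in the windows were the Cdc45 and Ufd1 promoter at rank 2969 and the Eftud2 promoter at rank 3168. The 3 Pax2 peaks joined into a domain of 6.75 kb at rank 5828. On the granule list, 10 of 12 genes had such a domain in the window. A WT Chd7 peak lay in the window of 10 of 12, against 14.3% of all genes. Within 1 kb of a start, 2 of the 12 had one, against 4.17% of all genes.

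Marked and unmarked genes occurred at both CpG-rich and CpG-poor starts. A coding start was called CpG-rich where the 1 kb around it had an observed to expected CpG ratio of at least 0.6 and at least 50% G+C, as held for 46% of genes. Calb1, Ptf1a, Pax2 and Olig2 met this, and Pax2 alone of these 4 had H3K27ac at a start. Over all genes, 78.1% of those with a CpG-rich coding start and 19.6% of those with a CpG-poor one had an H3K27ac peak within 1 kb of any annotated start. Among the 6 CpG-poor markers, Gfap and Csf1r were acetylated.

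**Figure D2:**
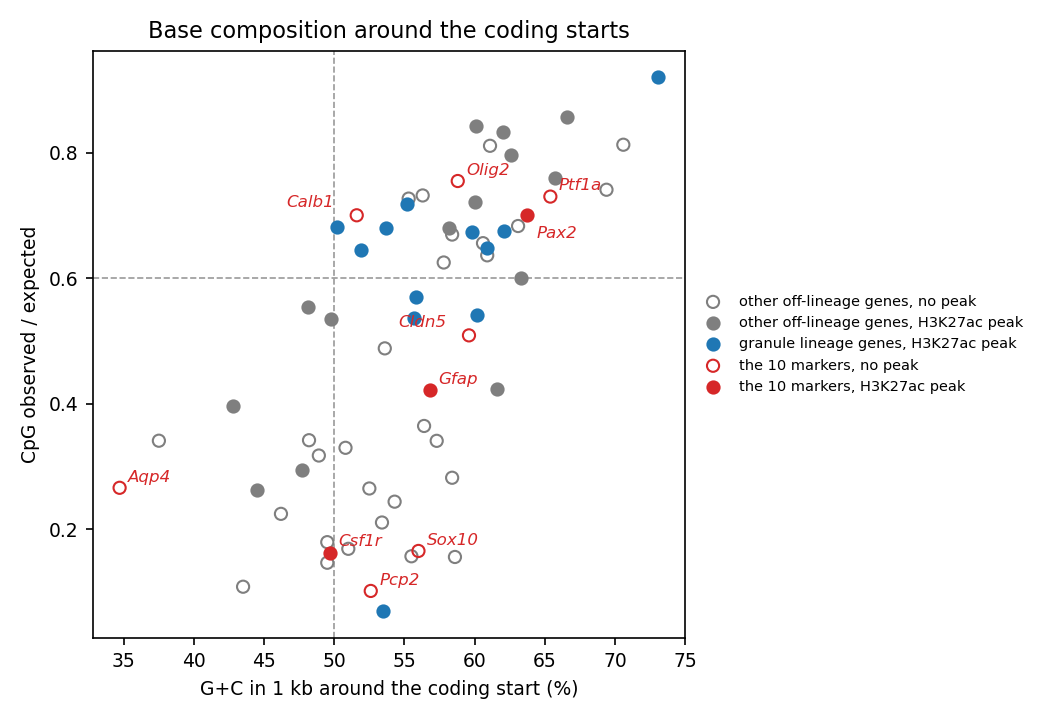
Observed to expected CpG ratio against G+C percentage in the 1 kb around the coding start for the 10 markers (red), the other off-lineage genes (grey) and the granule list (blue). Filled circles have an H3K27ac peak within 1 kb of a start, open circles have none, and dashed lines mark the limits of 0.6 and 50%; open and filled red circles occur on both sides of the limits.

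The 10 markers belong to wider lists of the same 6 classes, 52 genes with the markers included, and 17 of the 52 had an H3K27ac peak at a start, against 46.5% of all genes. By class these were 5 of 9 interneuron, 4 of 9 astrocyte and Bergmann glia, 4 of 10 Purkinje, 2 of 9 oligodendrocyte, 1 of 8 microglial and 1 of 7 endothelial genes. The interneuron share was above that of all genes, and the astrocyte and Purkinje shares were below but near it. The 5 interneuron peaks were weak, however, with a median fold of 3.95 and a highest of 4.34. The median over all genes with a start peak was 8.48. No difference between classes was tested. In the Purkinje list, start peaks were found at Lhx1 (fold 10.6) and Foxp2 (fold 7.54), both transcription factors of Purkinje cells, and at Rora (fold 5.63), an orphan nuclear receptor needed for Purkinje maturation. Pcp4, Car8 and Skor2 had no start peak. In the interneuron list, the GABA-synthesizing enzyme gene Gad1 (4.34), the vesicular transporter gene Slc32a1 (3.95) and Kirrel2 (3.51), a target of Ptf1a, were marked, while Gad2 and Pvalb were not. In the oligodendrocyte list Mbp (7.30) and Pdgfra (3.86) were marked, whereas Olig1 and Cspg4 were not. The Pdgfra peak lay at an annotated start other than the 5′ end or the coding start. The H3K27ac peak nearest to the Pdgfra coding start was 7.98 kb away. The Mbp peak lay on the most upstream of its 12 annotated starts, and no other H3K27ac peak lay at any of them. Mbp shares its locus with a longer transcription unit, Golli, and which transcript was active was not tested.

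Among astrocyte and Bergmann glia genes, Fabp7 (7.84), Slc1a3 (6.54) and Sox9 (4.86) had start peaks. Fabp7, a lipid carrier, and Slc1a3, a glutamate transporter, are expressed by radial and Bergmann glia, and Sox9 is a glial fate factor. Aldh1l1, Gdf10 and Hopx of this list had no start peak. The remaining 7 microglial genes, with Cx3cr1, Aif1 and P2ry12 among them, had no start peak. In the endothelial list Pecam1 had one, at a fold of 2.41, and Cdh5, Kdr and Flt1 had none. The Pecam1 peak lay at an annotated start other than the 5′ end or the coding start. The H3K27ac peak nearest to the Pecam1 coding start was 28.5 kb away. Over the 17 genes the median fold was 4.25, with a range from 2.41 to 10.6, and the granule genes Atoh1, Gli1, Ccnd2 and Gli2, with start folds of 3.55, 4.95, 6.10 and 7.87, lay inside this range. No value tells how many cells of another class were present, and their part in these peaks was not tested.

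**Figure D3:**
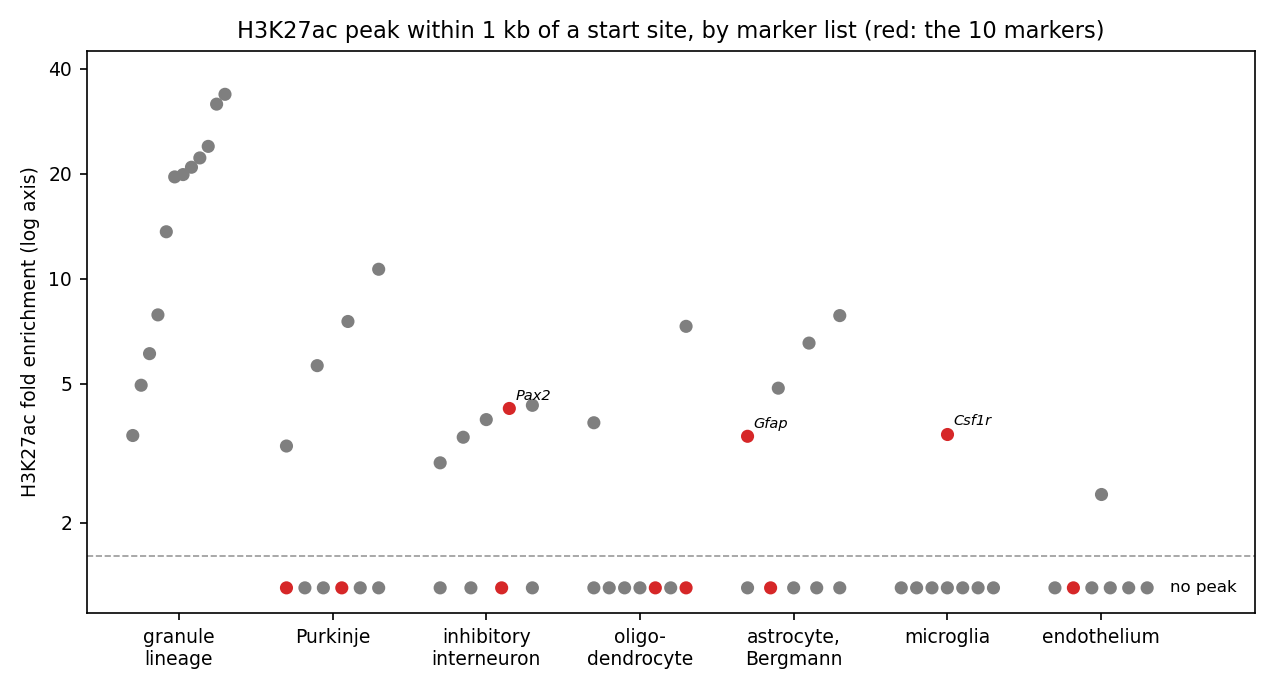
Fold enrichment of the strongest H3K27ac peak within 1 kb of a start (log axis), 1 point per gene, for the granule lineage list and the 6 off-lineage lists, with genes lacking such a peak placed under the dashed line. Red points are the 10 markers, of which Pax2, Gfap and Csf1r have a peak; all 12 granule genes have one, and their folds reach 33.8.

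WT Chd7 peaks lay in the windows of 8 of the 52 genes, a share close to the 14.3% of all genes, and within 1 kb of a start at 2 of them, against 4.17% of all genes. Foxp2, Cspg4 and Cldn5 had 2 each, and Pdgfra, Aif1, Tmem119, Spi1 and Pecam1 had 1 each. A super-enhancer-like domain reached into the windows of 3 of the 52, Lhx1, Pdgfra and Tmem119, against 8.29% of all genes. The 2 genes with Chd7 at a start were Foxp2, where H3K27ac was also present, and Tmem119, a microglial surface protein gene, where no H3K27ac peak lay at a start.

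Top2b was read as a second factor, from the CGN cultures. In WT CGNs, 7 peaks fell into the windows of 3 markers, with 5 at Pax2, 1 at Olig2 and 1 in the Csf1r window, against 62.2% of all genes with at least 1 peak. In Chd7-deficient CGNs, 17 peaks fell into the windows of 8 markers, against 70.9% of all genes. By window these were 6 for Pax2, 3 for Gfap, 2 each for Ptf1a and Csf1r, and 1 each for Calb1, Olig2, Sox10 and Cldn5. The peaks in the Olig2, Sox10 and Cldn5 windows were nearest to the starts of Olig1, Micall1 and Ufd1. Some of those in the Gfap and Csf1r windows were also nearest to a neighbouring gene, as was the WT peak in the Csf1r window. Pcp2 and Aqp4 had none in either library.

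Within 1 kb of a start, WT CGNs had Top2b at Pax2 alone (13.4% of all genes), and Chd7-deficient CGNs at Pax2, Calb1 and Gfap (24.5% of all genes). The WT and deficient peaks at the Pax2 start did not overlap each other. The WT peak (chr19:44756535-44756930) overlapped the H3K27ac peak of the Pax2 start, and the deficient one (chr19:44757024-44757423) began past its end. In the 10 windows 1 WT peak, 14.6 kb upstream of Pax2, overlapped a deficient peak. Over the genome, 16.8% of WT peaks overlapped a deficient peak and 13.3% of deficient peaks a WT peak, and the deficient library had more peaks in all, 21505 against 17030. The cultures were not the same cells as the fresh GNPs, and peak heights were not used here, so no strength is attached to the counts.

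**Figure D4:**
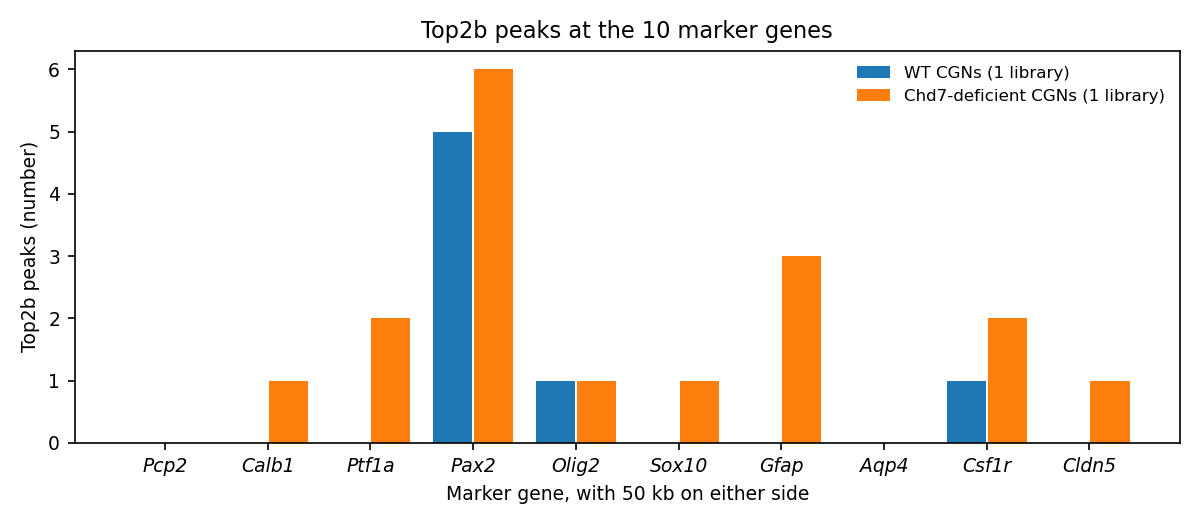
Number of Top2b peaks in each marker gene with 50 kb on either side, for WT (blue) and Chd7-deficient (orange) CGNs, 1 library each. Pax2 has 5 and 6 peaks, and Pcp2 and Aqp4 have none in either library.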

How the data were processed

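Peak files of 5 ChIP-seq libraries were analysed, 1 per condition, and no input library was used here. The authors trimmed the reads with Trim Galore, mapped them to mm10 with bowtie 1.0.0 and called peaks with macs2 (H3K27ac, Chd7) or homer (Top2b). The deposited macs2 tables give a pileup, a coverage signal at the summit, and as other columns the fold enrichment and the −log10 of p and q. The H3K27ac pileups were not all whole numbers, so they are read as coverage and not as fragment counts. Decimal points had been lost from these columns and were restored by dividing by 100000, and p-values recomputed from pileup and background agreed to within 0.00261. The Top2b files the authors deposited give positions only. The number of reads in each library and the control used by macs2 are not given in the sources used here.

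Genes, transcripts and starts were those of GENCODE M21, and sequence that of GRCm38. Peaks overlapped by at least 1 bp. Poisson intervals are exact. All 10 markers and the additional marker lists were chosen with earlier results of these data known. Named genes were the markers, the gene nearest to the strongest peak or to a Chd7 peak of each window, up to 3 marked and 3 unmarked genes of each further list, and the granule genes. Other genes named for a peak (Camsap3, Pet100, Micall1, Polr2f, Kif18b, Hmgxb3, Spi1, Tmem119) were chosen after their values were seen, as was the coding start. Counting was tested on simulated peaks. Python 3.11.15, numpy 2.4.6, pandas 2.3.3 and scipy 1.17.1 were used.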

Additional observations from a re-analysis of the deposited data

How the results depend on the processing

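Of 40 alternative values for the counts, 27 stayed within 1.5 times the reported one. Under a −log10 q of at least 10, the markers with H3K27ac at a start went from 3 to 0, the H3K27ac peaks in the windows from 18 to 10, those nearest to a marker from 7 to 2, and the off-lineage genes with a start peak from 17 to 7 and the granule genes from 12 to 11. With the annotated 5′ end as the only start, Pax2 remained the 1 marker with a peak, since the peaks of Gfap and Csf1r lay more than 1 kb from their 5′ ends. With the coding start, chosen after seeing the data, 3 markers, 15 off-lineage genes and 12 granule genes had one. A window of 10 kb left 11 H3K27ac peaks, 0 Chd7 peaks in 0 windows, 2 WT and 8 Chd7-deficient Top2b peaks, and the genes alone held 4 H3K27ac peaks. Both Chd7 peaks were lost at a −log10 q of at least 5, which left 0 peaks and 0 markers. The planned subset of higher-scoring Top2b peaks was not run because the files hold no score. No paired analysis was possible because there was 1 library per condition. Without replicates or the reads of each library, the absence of a peak means only that none was called at this depth.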
